A study of Mus musculus with 5 samples.

Results

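Integrins are adhesion receptors built from an alpha and a beta subunit, which bind matrix proteins or receptors on other cells and are switched to their active form from inside the cell by talin and kindlin proteins. Leukocytes carry a set of their own around the beta2 subunit, and on myeloid cells the alphaM subunit that pairs with it, CD11b, is the antigen most often used to sort them. The data described here are the transcripts of 10 integrin genes in sorted brain myeloid cells: Itgam, Itgal and Itgax, which encode the alpha partners of beta2; Itgb2 itself; Itga4, Itgb1 and Itgb7, the subunits of the alpha4 integrins; Itga6, a laminin-binding alpha subunit; and Itgav and Itgb5, which together form a vitronectin receptor. These 10 genes were chosen by symbol, of 16856 genes with at least 1 UMI in the cells kept. They gave 2598 of the 1132493 UMIs of those cells, 0.229%, or 3.15 UMIs per cell on average.

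The cells were taken from brain tissue of DM-hTAU mice, which express a mutated human tau transgene from the gene's natural promoter, at 9 months of age and after the anti-PD-L1 antibody (aPDL1 in the labels). They were gated by the authors as CD45highCD11bhigh, labelled CD45+ CD11b+, so every cell had been chosen for a high level of the Itgam protein, and they were profiled by MARS-seq, in which each cell is lysed in a well of its own and captured 3′ transcript ends are told apart by unique molecular identifiers (UMIs). The 5 libraries, AB5863, AB5864, AB5865, AB5867 and AB5876, are 1 plate each and carry the same labels, so no treatment is compared; the study's text describes this sort for mice given the IgG2b control antibody as well as for treated mice, which the labels do not show, and no source used here ties a well to a mouse. With libraries as blocks or pairs, the p-values below therefore set a difference between classes only against its variation from plate to plate, counting error included. That variation may be technical. The labels' preparation text is of thymus and small intestine although the tissue is given as brain.

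Of 1900 wells with a cell, 825 held at least 500 UMIs (spike-ins left out) and were kept, with a median of 1015 UMIs and a range from 500 to 10134. Depth was uneven: AB5865 and AB5876 gave 285 and 314 cells at medians of 1168 and 1268 UMIs, and the other 3 libraries 68 to 87 cells at medians of 651 to 759. No well identifier was shared between libraries. The 20 empty wells held 320 UMIs, none of them from the 10 genes, which limits free integrin RNA only loosely because 0 of 320 allows up to 93.8 UMIs per 10000.

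Cells were placed in classes by sums of marker genes, among which no integrin takes part. Cells led by P2ry12, Tmem119 and other microglial genes were called microglia-like (256 cells), and cells with Pf4, Mrc1 and other genes of macrophages at the brain's borders were called border macrophage-like (103 cells). Cells with MHC class II genes and macrophage lineage genes (C1qa, C1qb, C1qc, Apoe and Ms4a7) were called MHC class II macrophage-like (146 cells). They had to lie under the cut-offs of the other classes' markers. Apoe gave 3558 of their 6347 lineage UMIs. Microglial markers still stood at 24.5 UMIs per 10000 in them, and Ccr2 at 141 UMIs. Cells with Cd209a, Olfm1, Napsa and other genes listed for dendritic or Cd209a cells were called Cd209a cell-like (63 cells). They held 266, 94 and 81 UMIs of these genes and 8 of Flt3. Of Klrd1, Ccr7, Kmo and Zbtb46 they held 43, 30, 28 and 5. Clec9a and Xcr1 of the same list went the other way, at 3 and 0 UMIs beside 21 and 4 in MHC class II macrophage-like cells. Cells with Ly6c2, Ccr2 and related genes were called monocyte-like (54 cells). Both classes also had to reach a cut-off on a sum of both marker sets and S100a4, S100a6, Crip1, Lsp1, Vim and S100a11. These companion genes gave 948 UMIs in Cd209a cell-like and 304 in monocyte-like cells. Cells led by S100a8 and S100a9 were called neutrophil-like (30 cells), and 173 cells stayed unassigned. The Cd209a cell-like and monocyte-like cells together are called recruited mononuclear for their markers, since no origin was measured. The cut-offs were set after the marker sums had been seen, and 82 cells lay within 1.25-fold of the microglial one. Markers of other lineages were low in all 6 classes: the summed T or NK cell markers lay between 0.0743 and 0.410 UMIs per 10000, neuronal markers at 0 except for 0.0943 in microglia-like cells, and erythrocyte markers at 0. Endothelial markers reached further, from 0.446 to 1.72, and oligodendrocyte markers from 0 to 1.85, both highest in monocyte-like cells.

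All levels below are UMIs per 10000 UMIs of the same cells. A mean is over the libraries with at least 5 cells of the class, followed by the SD, and an interval on a pooled level is an exact 95% Poisson interval that covers counting error only. Exact binomial intervals on shares of UMIs or cells pool the libraries too, and leave out the spread between them. MARS-seq counts a transcript once at its 3′ end, so nothing was divided by gene length, and levels of different genes are not compared.

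In the genome build of the files (mm10, GRCm38) 3 of the beta2 partner genes share a chromosome. Itgal lies on the plus strand at chr7:127296260-127335138, Itgam at chr7:128062640-128118491 and Itgax at chr7:128129547-128150657, with 11055 bases between Itgam and Itgax. The other members lie at chr10:77530252-77565708 (Itgb2), chr8:128685654-128733200 (Itgb1), chr2:79255426-79333123 (Itga4), chr15:102215995-102231944 on the minus strand (Itgb7), chr16:33829665-33949338 (Itgb5), chr2:71745616-71858416 (Itga6) and chr2:83724397-83806916 (Itgav). The 3′ end of Itgam lies inside Gm49368, an annotated gene on the same strand that had 0 UMIs in the classes compared, and that of Itga4 inside Cerkl on the opposite strand, which had 1; reads shared between such genes cannot be told apart from the tables.

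RefSeq promoters (GRCm38.p6) were found for 7 of the 10 genes, and 3 are shown because the results turn on their genes, a choice made after the values were seen: Itgam and Itgb5, with their highest mean in microglia-like cells, and Itgb7, with its highest in Cd209a cell-like cells. Each runs from 150 bases before the annotated start to 20 bases after it, 5′ to 3′ on the gene's own strand, and capitals mark GAGGAA or its reverse complement TTCCTC, letters found in the core of sites of the myeloid factor PU.1.
Itgam (chr7:128062490-128062659, plus strand): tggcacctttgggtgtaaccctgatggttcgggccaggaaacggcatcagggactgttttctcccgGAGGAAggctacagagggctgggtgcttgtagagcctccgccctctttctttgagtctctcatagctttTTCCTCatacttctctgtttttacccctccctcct
Itgb5 (chr16:33829515-33829684, plus strand): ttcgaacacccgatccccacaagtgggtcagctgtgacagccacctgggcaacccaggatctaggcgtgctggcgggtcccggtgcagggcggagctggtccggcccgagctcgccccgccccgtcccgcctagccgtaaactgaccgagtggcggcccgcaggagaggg
Itgb7 (chr15:102231916-102232085, minus strand): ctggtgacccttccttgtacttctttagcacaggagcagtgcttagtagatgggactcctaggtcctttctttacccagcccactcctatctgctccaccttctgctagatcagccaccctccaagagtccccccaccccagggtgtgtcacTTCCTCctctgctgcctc
The Itgam stretch held 2 matches, both before the start, the Itgb7 stretch 1, just after it, and the Itgb5 stretch 0. In windows of 300 bases (250 before the start and 50 after), 4 of the 7 members held a match on either strand, against 28.3% of 32851 promoters. The Itgb5 stretch held 16 CG dinucleotides, the Itgam stretch 4 and the Itgb7 stretch 0. A match describes the letters only and is not evidence of a bound site.

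Microglia-like cells held the most Itgb5, and Cd209a cell-like cells the most Itgb7. Ordered by mean over libraries, the 6 classes gave 50 pairs of neighbours over the 10 genes, and the ranges of the libraries overlapped in 47 of them. The 3 exceptions stood at the top of their order: Itgb5 in microglia-like cells above MHC class II macrophage-like cells, Itgb7 in Cd209a cell-like cells above monocyte-like cells, and Itgal in monocyte-like cells above Cd209a cell-like cells. These orders are descriptions with no test. Such overlaps were not counted over all genes, so the 3 exceptions have no background to be read against. The same holds for every lack of overlap between classes given below. Summed, the 10 genes came to 30.1 UMIs per 10000 in microglia-like, 21.0 in MHC class II macrophage-like, 17.2 in Cd209a cell-like, 17.2 in monocyte-like, 16.8 in neutrophil-like and 14.3 in border macrophage-like cells.

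**Figure D1:**
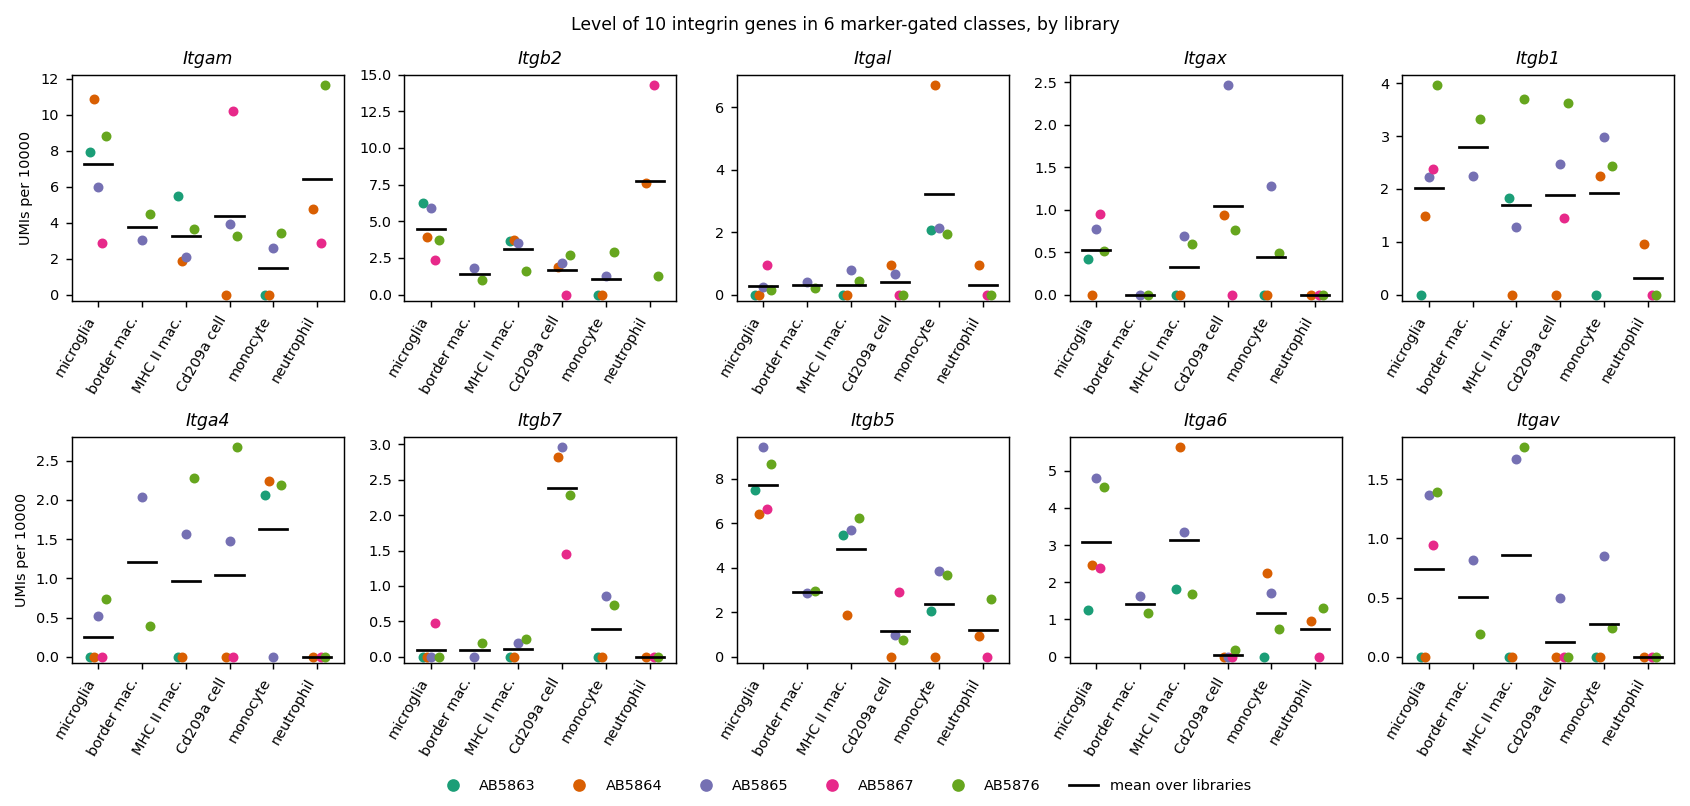
Level of each integrin gene (vertical axis, UMIs per 10000) in the 6 marker-gated classes (horizontal axis); each point is a library with at least 5 cells of the class, coloured by library, and the bar is the mean over libraries. Itgb5 lies between 6.42 and 9.43 in the microglia-like cells of all 5 libraries, and Itgb7 between 1.46 and 2.96 in Cd209a cell-like cells but at or under 0.855 in the other classes.

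Among the beta2 integrin genes, Itgam, the alphaM subunit of complement receptor 3, had its highest mean in microglia-like cells. Its level in them was 7.92, 10.9, 6.0, 2.84 and 8.82 UMIs per 10000 in AB5863, AB5864, AB5865, AB5867 and AB5876, a mean of 7.29 ± 3.04 (SD, n = 5). In the recruited mononuclear cells of the same libraries it was 4.61, 0, 3.56, 9.14 and 3.32, lower in 4 of 5 libraries and higher in AB5867. The ranges overlap, because AB5867 holds both the lowest microglia-like and the highest recruited level. Border macrophage-like cells had 3.06 and 4.51 in AB5865 and AB5876, the 2 libraries with enough of them. The MHC class II macrophage-like cells had 5.49, 1.88, 2.06 and 3.63 in AB5863, AB5864, AB5865 and AB5876, each below the microglia-like cells of its library. Neutrophil-like cells, of a type that carries CD11b at its surface in blood and tissue, had 4.74, 2.86 and 11.7 in AB5864, AB5867 and AB5876, above the microglia-like cells of the same library in 2 of 3. The sign of that difference turned with the scaling, from a log2 fold change of -0.73 with TMM factors to 0.95 with relative log expression factors and 0.92 by DESeq2, and it passed in none of them (adjusted p = 0.453, 0.680 and 0.433 from edgeR, edgeR and DESeq2).

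The classes were compared by a quasi-likelihood test on the UMIs of each class in each library, added up over its cells, with libraries as blocks and Benjamini-Hochberg adjustment over 6087 genes. Itgam was lower in recruited mononuclear than in microglia-like cells, by a log2 fold change of -1.33 ± 0.43 (SE; adjusted p = 0.0310 from edgeR), and in MHC class II macrophage-like than in microglia-like cells (-1.62 ± 0.46, adjusted p = 0.0389 from edgeR). Both calls were close to the threshold. Under 16 other settings they passed in 5 and 6, with edgeR or DESeq2 adjusted p from 0.000261 to 0.614 and from 0.00111 to 0.920, and both were lost without AB5863 (0.0945 and 0.0738), AB5864 (0.348 and 0.260), AB5865 (0.328 and 0.909) or AB5876 (0.614 and 0.920), from edgeR. Without the replicate block they were lost too (adjusted p = 0.173 and 0.475 from edgeR).

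Itgb2, the beta2 subunit without which none of the beta2 integrins reaches the surface, was 6.25, 3.95, 5.91, 2.37 and 3.75 in the microglia-like cells of the 5 libraries, and 12.7, 1.32, 1.90, 1.14 and 2.78 in the recruited mononuclear cells. The high value is AB5863, where 10 of the gene's UMIs came from 1 Cd209a cell-like cell of 2535 UMIs. Border macrophage-like cells had 1.83 and 0.980, below every microglia-like value. None of these differences passed the test (log2 fold change -0.88 ± 0.46, adjusted p = 0.269, for recruited mononuclear against microglia-like cells, and -1.59 ± 0.67, adjusted p = 0.515, for border macrophage-like against microglia-like cells, both from edgeR). Neutrophil-like cells gave 7.59, 14.3 and 1.30 in AB5864, AB5867 and AB5876, and the sign of their difference from microglia-like cells turned with the setting, from 0.45 on the log2 scale to -0.25 without AB5867, with the adjusted p at 0.635 from edgeR and 0.0182 from DESeq2.

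Itgal, the alphaL subunit of LFA-1, a receptor for intercellular adhesion molecules, had its highest mean in monocyte-like cells. It was 2.06, 6.72, 2.14 and 1.95 in the monocyte-like cells of AB5863, AB5864, AB5865 and AB5876, a mean of 3.22 ± 2.34 (SD, n = 4), on 17 UMIs. The means of the other 5 classes lay between 0.270 and 0.399, and their highest single library was 0.949. Unassigned cells, outside these classes, held 32 Itgal UMIs, at a pooled 1.36 per 10000 beside 2.25 in monocyte-like cells. They had 1.89 in AB5876, 1.38 in AB5865 and 0 in AB5863, AB5864 and AB5867, so Itgal was not confined to monocyte-like cells. Itgal is also a gene of T and NK cells, whose summed markers were 0.397 per 10000 in monocyte-like cells, on 3 UMIs, and 0.0743 to 0.279 in the microglia-like, macrophage-like and Cd209a cell-like classes; their part in the result was not tested, and the 4 cells with at least 3 T or NK marker UMIs, which were kept out of the classes, held 1 Itgal UMI of 8721. For the recruited mononuclear cells as a whole the log2 fold change against microglia-like cells was 1.82 ± 0.92 (adjusted p = 0.243 from edgeR), which did not pass.

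Itgax, the alphaX subunit known as CD11c, a surface marker of dendritic cells and of some activated microglia, was absent from the counts of border macrophage-like cells: 0 of 107348 UMIs, which allows up to 0.279 per 10000. Cd209a cell-like cells had 0.939, 2.47, 0 and 0.764 in AB5864, AB5865, AB5867 and AB5876, and microglia-like cells 0.417, 0, 0.771, 0.948 and 0.515 in the 5 libraries. The recruited mononuclear cells, with 27 UMIs and a pooled 1.28 per 10000, stood at 4.60 times that limit, and microglia-like cells at 2.14 times. The limit is 3 UMIs over the border macrophage-like class. Counting error of the higher class is left out, so these ratios are not lower bounds. The test of recruited mononuclear against border macrophage-like cells gave an adjusted p of 0.10 from edgeR, and passed in 6 of 15 other settings, down to 0.0113. The recruited mononuclear cells had 1.15, 0.661, 2.14, 1.14 and 0.642 in the 5 libraries, higher than the microglia-like cells in 5 of 5, with overlapping ranges. The pooled ratio was 2.2 (counting interval 1.15 to 4.09), and the test over libraries did not pass (log2 fold change 0.73 ± 0.82, adjusted p = 0.688 from edgeR).

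The make-up of the beta2 partners shows the same values as shares. Itgam gave 90.1% of the UMIs of Itgam, Itgal and Itgax together in microglia-like cells (exact binomial 95% interval 85.9 to 93.4%, 263 UMIs) and 91.3% in border macrophage-like cells (79.2 to 97.6%, 46 UMIs). The share was 72.2% in MHC class II macrophage-like cells (62.1 to 80.8%, 97 UMIs), 66.7% in Cd209a cell-like cells (55.1 to 76.9%, 78 UMIs) and 47.7% in monocyte-like cells (32.5 to 63.3%, 44 UMIs). In the last, Itgal gave 38.6%, and in Cd209a cell-like cells Itgax gave 26.9%. By library, the Itgam share was lower in recruited mononuclear than in microglia-like cells in 4 of 5 libraries, with means of 55.4% ± 33.6 and 86.7% ± 15.8 (SD, n = 5), a difference that did not pass an exact two-sided permutation test over paired libraries (p = 0.25, 0.5 after adjustment over 10 such shares, with 0.0625 the smallest p that 5 libraries allow).

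**Figure D2:**
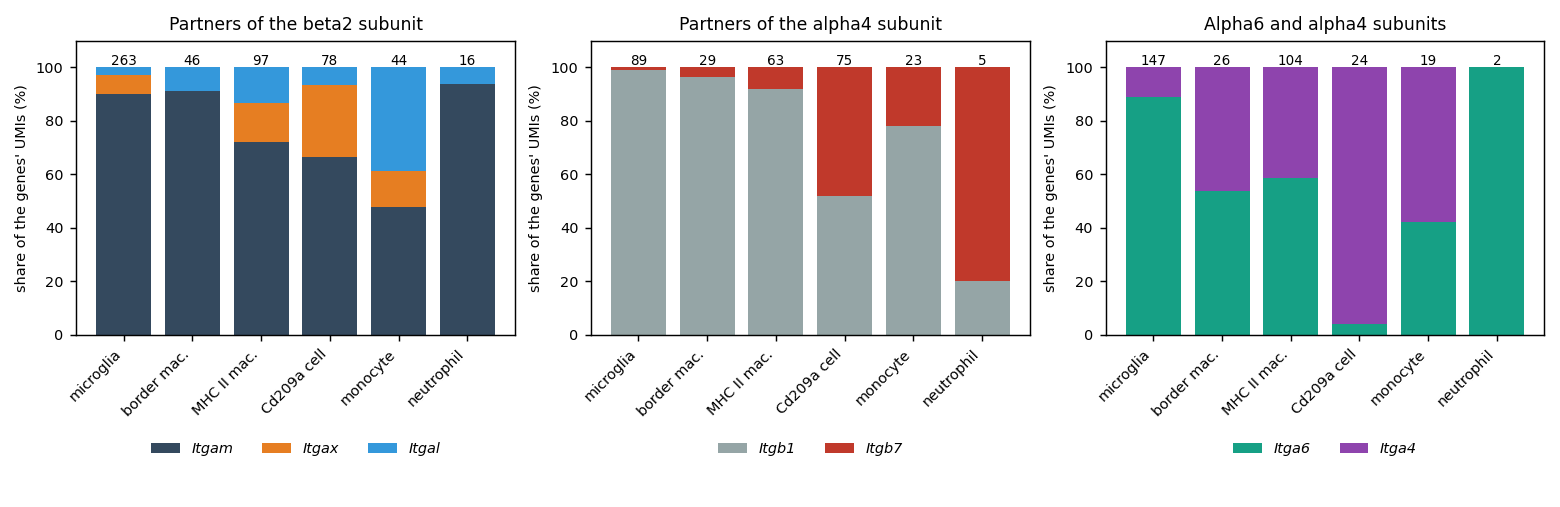
Share (vertical axis, percent) of each gene in the summed UMIs of Itgam, Itgax and Itgal (left), of Itgb1 and Itgb7 (middle) and of Itga6 and Itga4 (right), in the 6 classes, cells of all libraries pooled; the number above a bar is its UMIs. The Itgam share falls from 90.1% in microglia-like to 47.7% in monocyte-like cells, the Itgb7 share is 48.0% in Cd209a cell-like cells, and the neutrophil-like bars rest on 16, 5 and 2 UMIs.

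Among the alpha4 integrin genes, Itgb7 was called in 1 comparison and Itga4 and Itgb1 in none. Itgb1, the beta1 subunit shared by many alpha subunits, was 0, 1.48, 2.23, 2.37 and 3.97 in the microglia-like cells of the 5 libraries and 4.61, 0.661, 2.61, 1.14 and 3.10 in the recruited mononuclear cells, higher in 2 libraries and lower in 3. Its pooled level lay between 2.38 and 2.90 in 5 of the 6 classes, and neutrophil-like cells had 0.410, on 1 UMI. No comparison of Itgb1 passed, and the log2 fold change of recruited mononuclear against microglia-like cells was -0.15 ± 0.58 (adjusted p = 0.934 from edgeR).

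Itgb7, the beta7 subunit, best known from the homing of lymphocytes to the gut, was found almost entirely outside the resident cells. Microglia-like cells held 1 UMI of it in 318019, in AB5867, and border macrophage-like cells 1 in 107348. Cd209a cell-like cells had 2.82, 2.96, 1.46 and 2.29 per 10000 in AB5864, AB5865, AB5867 and AB5876, a mean of 2.38 ± 0.680 (SD, n = 4), on 36 UMIs. Monocyte-like cells had 0, 0, 0.855 and 0.731 in AB5863, AB5864, AB5865 and AB5876, on 5 UMIs. The 4 UMIs in neutrophil-like cells came from 1 cell of 538 UMIs in AB5865. The groups do not overlap: the recruited mononuclear cells had 2.31, 1.98, 2.38, 1.14 and 1.61 in the 5 libraries, above the highest microglia-like value of 0.474 in each. These recruited values rest on 2, 3, 20, 1 and 15 UMIs. In AB5867 the recruited and the microglia-like value are thus 1 UMI each.

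In recruited mononuclear cells Itgb7 was above microglia-like cells by a log2 fold change of 4.68 ± 1.09 (adjusted p = 0.000779 from edgeR). Counted directly, 41 UMIs against 1 gave a ratio of 62.0, with a counting interval from 10.5 to 2510. It passed in 13 of 15 other settings, and without AB5865 or AB5876, the deep libraries, it did not (adjusted p = 0.196 and 0.120 from edgeR). Against border macrophage-like cells the log2 fold change was 3.71 ± 1.40 (adjusted p = 0.201 from edgeR), which did not pass. As shares of cells thinned to 500 UMIs, 12.7% of Cd209a cell-like cells held an Itgb7 UMI (exact binomial 95% interval 5.65 to 23.5%; 30.2% before thinning) and 0.391% of microglia-like cells (0.00989 to 2.16%; also 0.391% before thinning), at median depths of 1927 and 983 UMIs.

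Itga4, which pairs with beta1 or beta7 and binds vascular adhesion molecule VCAM-1, was 0, 0, 0.514, 0 and 0.735 in microglia-like cells and 1.15, 0.661, 1.07, 0 and 2.46 in recruited mononuclear cells of the 5 libraries, higher in 4 of 5 and at 0 in both in AB5867. The MHC class II macrophage-like cells had 0, 0, 1.57 and 2.28 in AB5863, AB5864, AB5865 and AB5876, and 10 of their 43 UMIs came from 1 cell of 2819 UMIs. Neutrophil-like cells held 0 of 24413 UMIs, which allows up to 1.23 per 10000. None of the comparisons passed, the log2 fold changes against microglia-like cells being 1.49 ± 0.84 for recruited mononuclear (adjusted p = 0.317) and 1.44 ± 0.82 for MHC class II macrophage-like cells (adjusted p = 0.596, both from edgeR). Of the UMIs of the beta subunits Itgb1 and Itgb7, Itgb7 gave 48.0% in Cd209a cell-like cells (36.3 to 59.8%, 75 UMIs), 21.7% in monocyte-like cells (7.46 to 43.7%, 23 UMIs), 7.94% in MHC class II macrophage-like cells (2.63 to 17.6%, 63 UMIs) and 1.12% in microglia-like cells (0.0284 to 6.10%, 89 UMIs). Over paired libraries the share of recruited mononuclear against microglia-like cells had 2 usable pairs, too few to pass (exact two-sided permutation p = 0.5, the smallest possible).

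Of the vitronectin receptor genes, Itgb5 passed the test and Itgav did not; their difference was not tested. Itgb5, the beta5 subunit and a gene known to be enriched in microglia among brain cells, was 7.51, 6.42, 9.43, 6.64 and 8.67 per 10000 in the microglia-like cells of AB5863, AB5864, AB5865, AB5867 and AB5876, a mean of 7.73 ± 1.30 (SD, n = 5). In the recruited mononuclear cells it was 1.15, 0, 1.78, 2.28 and 2.03, below the microglia-like value in 5 of 5 libraries and with no overlap of the groups. Border macrophage-like cells had 2.85 and 2.94, also with no overlap, and MHC class II macrophage-like cells 5.49, 1.88, 5.70 and 6.24, each below its own library's microglia-like cells. Within the recruited cells, the pooled level was 3.31 in monocyte-like cells (95% interval 2.14 to 4.88) and 0.892 in Cd209a cell-like cells (0.461 to 1.56).

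In recruited mononuclear cells Itgb5 was below microglia-like cells by a log2 fold change of -2.76 ± 0.48 (adjusted p = 1.39e-06 from edgeR), and this call alone among those of the 10 genes passed in all 16 other settings, between -3.16 and -2.24. Against border macrophage-like cells microglia-like cells were higher by a log2 difference that did not pass as planned (-1.86 ± 0.59 for border macrophage-like cells, adjusted p = 0.175 from edgeR) but passed in 5 of 16 other settings, DESeq2 among them (adjusted p = 0.00220). For MHC class II macrophage-like cells the value was -1.02 ± 0.45 (adjusted p = 0.389 from edgeR), and DESeq2 called it lower (-0.94, adjusted p = 0.0393). In neutrophil-like cells, with 3 UMIs of it, the log2 fold change was -3.05 ± 0.84 (adjusted p = 0.0105 from edgeR), but the median of all 6087 genes stood at -2.97 in that comparison, 0.08 away, and the call was lost with total UMIs as the only scaling (adjusted p = 0.105) and with relative log expression factors (adjusted p = 0.765, both from edgeR). Thinned to 500 UMIs, 30.1% of microglia-like cells held an Itgb5 UMI (24.5 to 36.1%; 50.4% before thinning) and 5.13% of recruited mononuclear cells (1.90 to 10.8%; 21.4% before thinning). The share of MHC class II macrophage-like cells was 24.0% (17.3 to 31.7%, 51.4% before thinning), with an interval that overlaps that of microglia-like cells.

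Itgav, the alphav subunit that pairs with beta5 and with several other beta subunits, was 0, 0, 1.37, 0.948 and 1.40 in microglia-like cells, and 0, 0, 0.594, 0 and 0.107 in recruited mononuclear cells of the 5 libraries. The MHC class II macrophage-like cells had 0, 0, 1.67 and 1.77, at or above the microglia-like cells of the same libraries. Its 37 UMIs in microglia-like and 6 in recruited mononuclear cells gave a log2 fold change of -2.33 ± 0.96 (adjusted p = 0.127 from edgeR), and that for MHC class II macrophage-like cells was 0.18 ± 0.89 (adjusted p = 0.984 from edgeR), so no difference of Itgav passed.

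**Figure D3:**
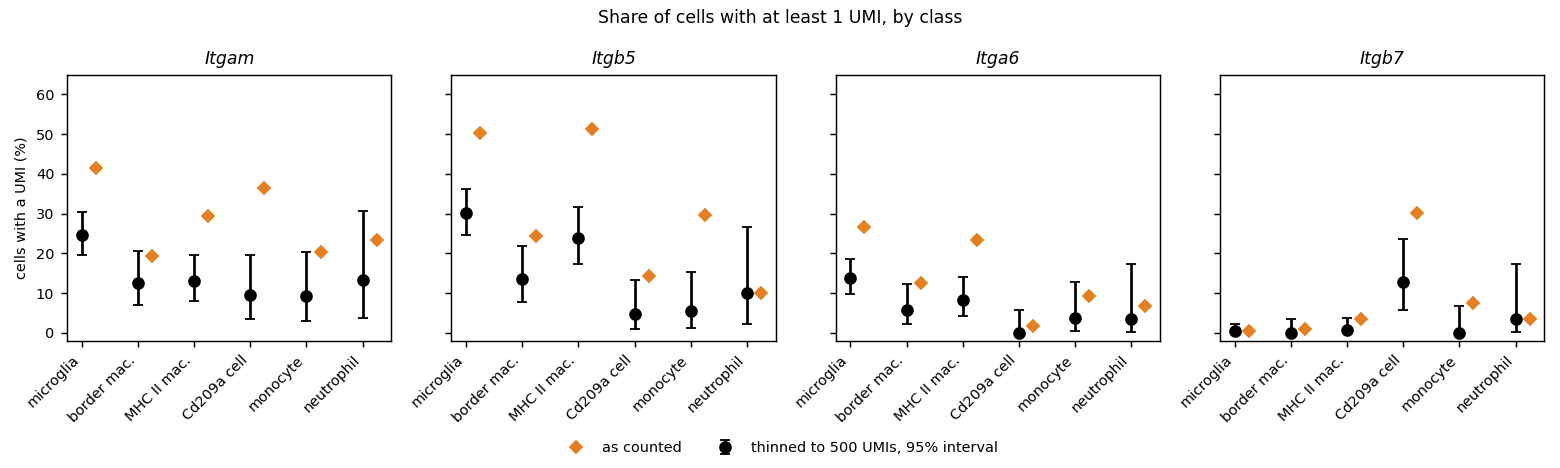
Share of cells (vertical axis, percent) with at least 1 UMI of Itgam, Itgb5, Itga6 or Itgb7 in the 6 classes; black points are cells thinned to 500 UMIs with exact binomial 95% intervals, orange diamonds the cells as counted. The thinned share of Itgb5 is 30.1% in microglia-like, 24.0% in MHC class II macrophage-like and 4.76% in Cd209a cell-like cells. That of Itgb7 is 12.7% in Cd209a cell-like cells and at or under 3.33% in the other classes.

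Itga6, the alpha6 subunit of laminin receptors, was nearly missing from Cd209a cell-like cells. They held 1 UMI of it in 134511, in AB5876. Microglia-like cells had 1.25, 2.47, 4.80, 2.37 and 4.56 per 10000 in the 5 libraries, a mean of 3.09 ± 1.53 (SD, n = 5), and recruited mononuclear cells 0, 0.661, 0.475, 0 and 0.428, below in 5 of 5 with no overlap. The recruited level came mostly from monocyte-like cells, which held 8 of the 9 UMIs. The log2 fold change was -3.42 ± 0.71 (adjusted p = 9.13e-05 from edgeR), a call kept in 14 of 16 other settings and lost without AB5865 or AB5876 (adjusted p = 0.148 and 0.162). MHC class II macrophage-like cells had 1.83, 5.63, 3.34 and 1.69, above the microglia-like cells in 2 libraries and below in 2, and border macrophage-like cells 1.63 and 1.18. Of the UMIs of Itga4 and Itga6, Itga6 gave 89.1% in microglia-like cells (82.9 to 93.6%, 147 UMIs), 58.7% in MHC class II macrophage-like cells (48.6 to 68.2%, 104 UMIs) and 4.17% in Cd209a cell-like cells (0.105 to 21.1%, 24 UMIs). Over paired libraries exact two-sided permutation tests of this share against microglia-like cells gave p = 0.5 for recruited mononuclear cells (2 pairs, the smallest p 0.5) and p = 0.5 for MHC class II macrophage-like cells (3 pairs, the smallest p 0.25), and neither could pass.

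Counted over the 10 genes, recruited mononuclear against microglia-like cells gave 1 higher (Itgb7) and 3 lower (Itgb5, Itga6 and Itgam), where 1.79% of all genes tested were called higher and 5.5% lower; DESeq2 called 1 higher and 2 lower. MHC class II macrophage-like against microglia-like cells gave 0 higher and 1 lower, against 0.263% and 0.871% of all genes; edgeR put 2 of the 10 under an unadjusted p of 0.05, and DESeq2 called 2 lower. Neutrophil-like against microglia-like cells gave 0 higher and 1 lower, against 1.05% and 3.47%, with 3 at an unadjusted p under 0.05 and 1 higher by DESeq2. Border macrophage-like against microglia-like cells gave 0, against 0.246% higher and 0.312% lower, with 4 at an unadjusted p under 0.05 and 1 lower by DESeq2. Recruited mononuclear against border macrophage-like cells gave 0, against 0.361% higher and 1.3% lower, with 3 at an unadjusted p under 0.05 and 0 by DESeq2. The 3 comparisons with border macrophage-like or neutrophil-like cells rest on 2 or 3 libraries with those cells. The first 4 comparisons share the microglia-like cells. Over all 6087 genes DESeq2 called 198 higher and 310 lower in the first comparison. In the others, in the order given, it called 33 and 95, 249 and 32, 23 and 28, and 50 and 116. How many of all genes lay under an unadjusted p of 0.05 was not counted, so those counts have no background here.

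Scaling moved these comparisons as a whole. With TMM factors, the median log2 fold change of all genes was -0.53 for recruited mononuclear against microglia-like cells and -0.38 for MHC class II macrophage-like cells, and with total UMIs alone it was -0.24 and -0.18. Relative to the median, with TMM factors and with total UMIs alone, the recruited difference was 5.22 and 5.21 for Itgb7, -2.22 and -2.16 for Itgb5, -2.89 and -2.90 for Itga6, and -0.80 and -0.76 for Itgam. The medians of the 10 genes were -0.51 and -0.40 in these 2 comparisons, beside -0.53 and -0.38 over all genes. They were -1.32 beside -0.30 for border macrophage-like and -2.63 beside -2.97 for neutrophil-like against microglia-like cells, and 0.22 beside -0.19 for recruited mononuclear against border macrophage-like cells. Calls split into 109 higher and 335 lower for the recruited cells with TMM factors, 247 and 248 with total UMIs alone, and 198 and 310 by DESeq2. The MHC class II macrophage-like split was 16 and 53, or 33 and 39 with total UMIs alone, and that of recruited mononuclear against border macrophage-like cells 22 and 79, or 37 and 73. For neutrophil-like cells it was 64 and 211 with TMM factors, 93 and 114 with total UMIs alone, 186 and 30 with relative log expression factors and 249 and 32 by DESeq2, so no direction of a neutrophil-like difference is drawn from TMM factors alone.

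**Figure D4:**
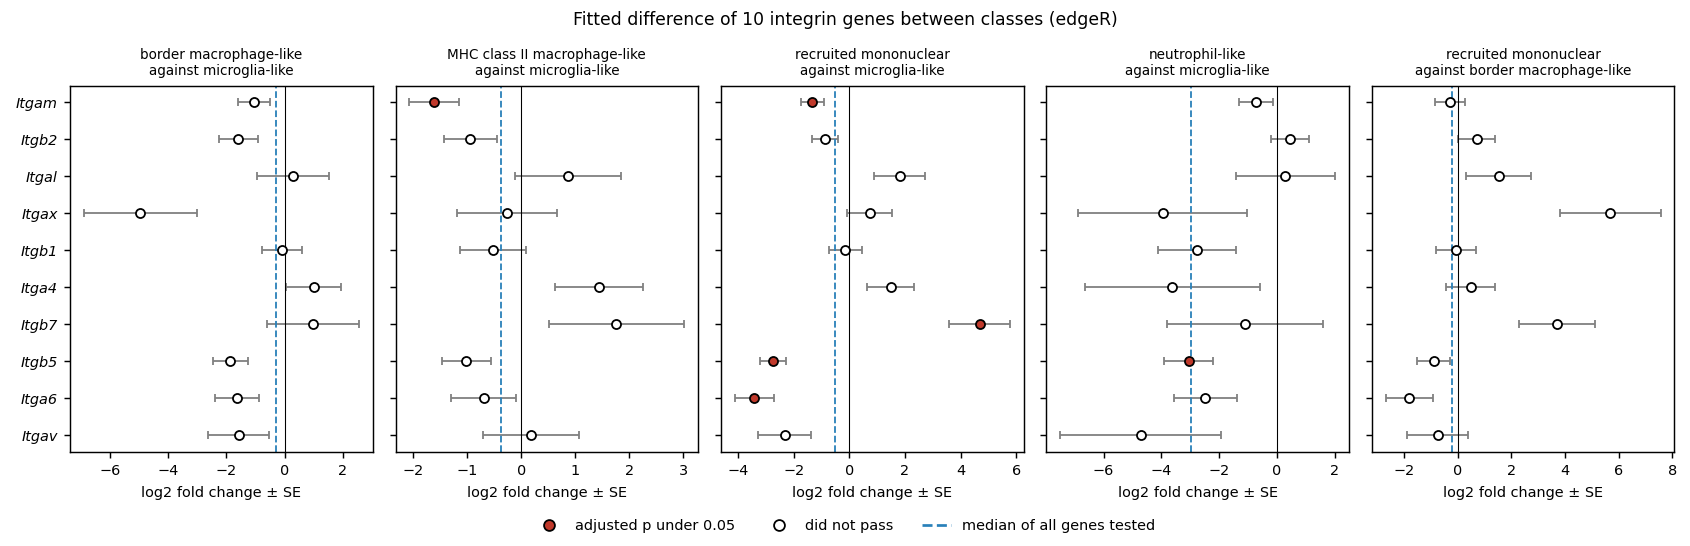
Fitted log2 fold change ± SE (horizontal axis) of the 10 genes in 5 comparisons of classes, from edgeR; red points passed at an adjusted p under 0.05 over 6087 genes, white points did not, and the dashed line is the median of all genes tested. Red are Itgam, Itgb7, Itgb5 and Itga6 for recruited mononuclear, Itgam for MHC class II macrophage-like and Itgb5 for neutrophil-like cells, each against microglia-like cells, with the neutrophil-like Itgb5 point on the dashed line.

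The other integrin subunits were rare. Of 16 further genes of the family, 9 had no UMI in the kept cells, and the 7 others gave 77 UMIs in all, led by Itga9 (33 UMIs), Itgb3 (19) and Itga5 (14). Itga9 alone reached the 20 UMIs needed for the test and was not called in any of the 5 comparisons, where its unadjusted p was not under 0.05 by edgeR either and DESeq2 gave 0 calls.

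Of 26 listed genes that activate integrins or carry their signal, 20 were tested. Recruited mononuclear against microglia-like cells gave 0 higher and 1 lower, beside 1.79% and 5.5% of all genes, with 5 under 0.05 before adjustment; by DESeq2, 2 were higher and 1 lower. Neutrophil-like against microglia-like cells gave 1 higher and 0 lower, beside 1.05% and 3.47%, with 4 under 0.05 before adjustment; by DESeq2, 5 were higher and 0 lower. Recruited mononuclear against border macrophage-like cells gave 0 higher and 1 lower, beside 0.361% and 1.3%, with 4 at an unadjusted p under 0.05 and 0 called by DESeq2. The border and MHC class II macrophage-like comparisons with microglia-like cells gave 0 by edgeR and DESeq2, with 2 each at an unadjusted p under 0.05. For DESeq2 the counts over all genes are those given above, and for unadjusted p no such count was made. Rap1b, the small GTPase that recruits talin, had the most UMIs (587). Its log2 fold changes against microglia-like cells lay between -0.63 and 0.31 by edgeR, with none passing. DESeq2 called Rap1b higher in neutrophil-like cells (log2 fold change 1.75, adjusted p = 0.0148), where its median over all genes was 0.92. Tln1, the main talin of leukocytes (331 UMIs), lay between -0.74 and 0.44 in the same comparisons by edgeR. Apbb1ip, the adaptor between Rap1 and talin (260 UMIs), lay between -1.72 and -0.65, and neither gene passed by edgeR. The 1 gene that DESeq2 called lower in recruited mononuclear than in microglia-like cells was Apbb1ip (log2 fold change -1.72, adjusted p = 0.0175). Recruited mononuclear cells held 0 UMIs of Tln2, a second talin. They were called lower than microglia-like cells (19 UMIs, adjusted p = 0.00985 from edgeR) and than border macrophage-like cells (15 UMIs, adjusted p = 0.0117 from edgeR). The pooled levels of the latter classes were 4.18 and 9.79 times the limit that 0 UMIs allow, their own counting error left out. DESeq2 gave Tln2 no adjusted p in either comparison. Fgr, a Src-family kinase that acts downstream of beta2 integrins, was higher in neutrophil-like than in microglia-like cells, at a pooled 3.28 against 0.0943 per 10000 (log2 fold change 4.13 ± 1.30, adjusted p = 0.0366 from edgeR). DESeq2 called it higher there too (5.60, adjusted p = 4.23e-05). For recruited mononuclear against microglia-like cells DESeq2 called Fgr higher (2.82, adjusted p = 0.0248), while edgeR did not (2.77 ± 1.03, adjusted p = 0.0795).

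Ligands and surface partners of integrins made a list of 24, of which 12 were tested, and recruited mononuclear against microglia-like cells gave 1 higher and 3 lower, beside 1.79% and 5.5% of all genes, the same counts as by DESeq2. The tetraspanins Cd81 and Cd9, membrane organisers that associate with integrins, fell: Cd81 was 18.7 ± 5.53 per 10000 (SD, n = 5) in microglia-like and 3.75 ± 2.42 (n = 5) in recruited mononuclear cells (-2.94 ± 0.38 as log2 fold change, adjusted p = 3.59e-12 from edgeR), and Cd9 was 10.1 ± 1.68 and 3.13 ± 0.918 (-2.18 ± 0.42, adjusted p = 2.29e-05 from edgeR). Cd9 was also lower in border macrophage-like (-2.34 ± 0.59, adjusted p = 0.0199) and MHC class II macrophage-like cells (-1.70 ± 0.43, adjusted p = 0.0126, both from edgeR). F11r, a junctional adhesion molecule that binds LFA-1, fell from 6.13 ± 1.53 to 1.76 ± 1.73 in recruited mononuclear cells (-1.96 ± 0.50, adjusted p = 0.00298 from edgeR). Cd44, a hyaluronan receptor that cooperates with integrins, rose from 0.472 ± 0.806 to 2.23 ± 1.47 (2.34 ± 0.76, adjusted p = 0.0326 from edgeR). In neutrophil-like cells Cd81 and F11r were called lower (-3.86 and -4.23, adjusted p = 1.15e-06 and 0.00631 from edgeR), beside the median of -2.97, while DESeq2 called 0 of the list lower and 2 higher there. Vcam1, a ligand of the alpha4 integrins, was 6.01 ± 1.01 (n = 2) in border macrophage-like cells and 0.178 ± 0.252 (n = 5) in recruited mononuclear cells, and was called lower in the latter (-4.02 ± 0.87, adjusted p = 0.000608 from edgeR). Cd47, a partner of alphav integrins (428 UMIs), passed in no comparison, with log2 fold changes between -0.56 and 0.39.

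The genes whose levels ran most like those of a member were sought among 1653 genes with at least 100 UMIs, over the 19 sums of a library and class, as Pearson correlations of log2(level + 1). The sums share libraries and differ in depth, so these values are descriptions only. The closest pairs were Itga4 with Cxcl10 (r = 0.90), an interferon-induced chemokine, and Itgb5 with Itm2b (r = 0.90), Tgfbr1 (r = 0.86), a TGF-beta receptor, and Ctss (r = 0.86), cathepsin S. Itga6 ran most like Saraf (r = 0.83), Scamp2 and Smap2, Itgb1 most like Ranbp1 (r = 0.78), and Itgb2 and Itgam had no gene above 0.70 and 0.62.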

How the data were processed

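Each deposited table holds unnormalized UMI counts made by the authors, 52634 rows (92 of them spike-ins) by 384 wells. bcl2fastq 2.15.0.4 and mm10 are named in the processing notes of the submitters; for the aligner, nothing is given in the sources used here. Wells with 1 cell and at least 500 UMIs were kept (1075 fell below), doublets were left to the authors' sort, and classes came from marker sums. Counts were summed per library and class (at least 5 cells) and fitted with edgeR 4.0.16 in R 4.3.3 (TMM, robust quasi-likelihood, library as a block because both sums share a plate, genes with at least 20 UMIs), after a test on simulated data; SE is the fold change divided by the root of F. DESeq2 1.42.0 and other filters, scalings, gates and left-out libraries were alternatives. Members, lists and tests were chosen with earlier results of these data known. Beside the members, up to 6 called genes and the 3 with most UMIs per list were named. Genes are placed by GENCODE M21.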

Additional observations from a re-analysis of the deposited data

Results flagged for a closer look

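Of 50 sets of 4 or 5 libraries (a member in a class), 9 held a library whose gap to the nearest was a large part of the whole range. The cut-off gives about 1 in 20 by chance for normally distributed values only, so it sets no rate for these sparse counts. A set with UMIs in 1 library alone is always flagged, and some classes overlap. The high values were Itgb2 in recruited mononuclear cells of AB5863 (12.7 UMIs per 10000), Itgal in monocyte-like cells of AB5864 (6.72) and in microglia-like cells of AB5867 (0.948), Itgb7 in microglia-like cells of AB5867 (0.474), Itga6 in Cd209a cell-like cells of AB5876 (0.191) and Itgav in Cd209a cell-like (0.493) and recruited mononuclear (0.594) cells of AB5865. The low ones were Itgb2 in MHC class II macrophage-like cells of AB5876 (1.60) and Itga4 in monocyte-like cells of AB5865 (0). The AB5863 value rests on 1 cell with 10 Itgb2 UMIs, and the Itgb7 value of AB5867 on 1 UMI.

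Signal also stood in wells that enter no comparison. The 1075 wells under 500 UMIs held 23.9 UMIs of the 10 genes per 10000, and the 173 unassigned cells 24.9, with Itgb5 at 6.74 and 6.13 and Itgb7 at 0.227 and 0.511.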

How the results depend on the processing

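Among the 10 genes, Itgb5 in recruited mononuclear against microglia-like cells passed in all 16 other settings. Calls changed in number as follows. For border macrophage-like against microglia-like cells, where 0 of the 10 were called, 1 was with DESeq2, filterByExpr, at least 300 or at least 1000 UMIs, and 2 with sums of at least 10 cells. For MHC class II macrophage-like cells, where 1 was called, DESeq2 gave 2, and no filter, at least 300 UMIs, no replicate block, the stricter gate, total UMIs only and leaving out cells over 4000 UMIs gave 0. For neutrophil-like cells, where 1 was called, at least 300 UMIs gave 2, and relative log expression factors, filterByExpr, sums of at least 10 cells and total UMIs only gave 0. For recruited mononuclear against border macrophage-like cells, where 0 were called, 1 was with at least 300 UMIs, 3 with at least 1000 and 2 with sums of at least 10 cells. Leaving out a library gave 0 to 1 in the last comparison, 1 to 4 for recruited mononuclear against microglia-like cells (4 with all, and 1 without AB5865 or AB5876; 3 with no replicate block), and 0 to 1 for MHC class II macrophage-like and neutrophil-like cells.

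Over all genes, border macrophage-like against microglia-like cells gave 34 calls, but 79 and 102 with at least 300 and 1000 UMIs, 110 with sums of at least 10 cells and 0 to 55 with a library left out. MHC class II macrophage-like cells gave 69, but 128 by DESeq2, 41 with no filter, 179 with at least 1000 UMIs, 35 with no replicate block, 173 with sums of at least 10 cells and 14 to 66 with a library left out. Recruited mononuclear cells gave 444, but 282 with filterByExpr, 276 with no filter and 89 to 394 with a library left out. Neutrophil-like cells gave 275, but 736 with at least 300 UMIs, 125 with sums of at least 10 cells and 93 to 341 with a library left out. Recruited mononuclear against border macrophage-like cells gave 101, but 166 by DESeq2, 62 with no filter, 341 with at least 1000 UMIs, 333 with sums of at least 10 cells and 4 to 127 with a library left out. Itgb2 in neutrophil-like cells (log2 fold change 0.45) turned to -0.053 with no replicate block, -0.24 without AB5864 and -0.25 without AB5867, within a range of -0.25 to 1.32 with a library left out; the causes were not tested. The neutrophil-like comparison could not be fitted with at least 1000 UMIs. Of 70 levels, 0 moved by over 1 SD with the cells over 4000 UMIs left out, and 9 of 60 with at least 1000 UMIs. With a library left out 0 moved too. A mean over libraries cannot move by over 1 SD of those libraries in that way, so this count tests nothing. The total-UMI scaling and the 4000 UMI limit were chosen after seeing the data. Depth limits the rarer genes: Itgb7 rests on 64 UMIs and Itgal on 79.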
